A study of Mus musculus with 12 samples.

Results

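The redox genes described here are 39 of the 3939 genes in a single deposited table, which compares left ventricular myocardium after AngII/PE with myocardium after NaCl. They were chosen by symbol: the Nox, Cyba, Cybb and Ncf genes of NADPH oxidase, the glutathione S-transferases and peroxidases, the peroxiredoxin, thioredoxin, glutaredoxin and methionine sulfoxide reductase families, superoxide dismutases and catalase, metallothioneins, heme oxygenases, quinone reductases, aldo-keto reductases of the Akr1 family and aldehyde dehydrogenases. Aldh1a2 and Aldh6a1 were left out by the rule. GENCODE M21, the mouse annotation on GRCm38 (the assembly also called mm10), holds 122 protein coding genes with such symbols; 38 of them had a value, 84 had no value analysed here, and the remaining redox gene, Gstm2-ps1, is annotated as a processed pseudogene.

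The samples were whole left ventricles of wild-type mice on a C57Bl6J/129X1 hybrid background, sequenced as 12 libraries in 4 groups of 3: females given AngII/PE, males given AngII/PE, females given NaCl and males given NaCl, each for 3 days. AngII/PE is an abbreviation of the labels; in heart research it usually means angiotensin II, a vasoconstrictor peptide, given along with phenylephrine, which stimulates alpha-1 adrenergic receptors. Ages were not given in the sources used here. Nothing in the labels ties a library to a mouse of its own, so the authors' adjusted p-values cannot be said to rest on separate mice. How the libraries entered those p-values is not known. Values per library were not analysed here, so depth, sex and the spread between replicates cannot be set beside any gene, and every expression value is the authors' own log2 fold change of AngII/PE over NaCl or their adjusted p. For Mt1, Prdx5 and Gstm7 the description beside the symbol names another gene; the symbol was followed, and which gene the value belongs to is uncertain to that extent.

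Cells make superoxide and hydrogen peroxide both on purpose, through NADPH oxidases, and as a by-product of mitochondrial respiration. Superoxide dismutases turn superoxide into hydrogen peroxide, which catalase, glutathione peroxidases and peroxiredoxins remove, while glutathione S-transferases, aldehyde dehydrogenases and aldo-keto reductases dispose of the reactive aldehydes that oxidised lipids give. In the heart, angiotensin II is known as a stimulus of NADPH oxidase, and the mitochondria of cardiac muscle are the main site of oxygen use.

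The families moved in different directions after AngII/PE. All 4 NADPH oxidase genes and all 4 glutathione peroxidase genes with a value were higher, and all 8 glutathione S-transferase genes were lower. The remaining 5 families were split. In total 18 of the 39 redox genes (46.2%) were higher and 21 (53.8%) lower, beside 56.2% higher and 43.8% lower over all 3939 listed genes. Every listed gene has an adjusted p below 0.05, so presence in the table already meant a call and these shares describe direction only; no test was run on them. Among the redox genes, 38 of 39 had an adjusted p below 0.001, beside 3467 of all 3939 listed genes.

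Listed rises were larger than listed falls, among the redox genes as in the whole table. The median log2 fold change was 1.29 among the 18 higher redox genes and -0.65 among the 21 lower ones, beside 1.06 and -0.63 over all listed rises and falls of the authors' deposited table. At least a doubling, a value of 1 or more, was listed for 10 redox genes (25.6%), against 30.7% of all listed genes, and -1 or less for 3 (7.69%), against 6.96%. These shares lie near those of the whole table. The smallest rise, Txndc17 at 0.60, exceeded 9 of the 21 falls in size in the authors' deposited table. Listed falls begin at smaller sizes than listed rises (5% of all rises lie under 0.63 and 5% of all falls above -0.41). This bears on the sizes compared here and on any count of higher against lower genes.

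**Figure D1:**
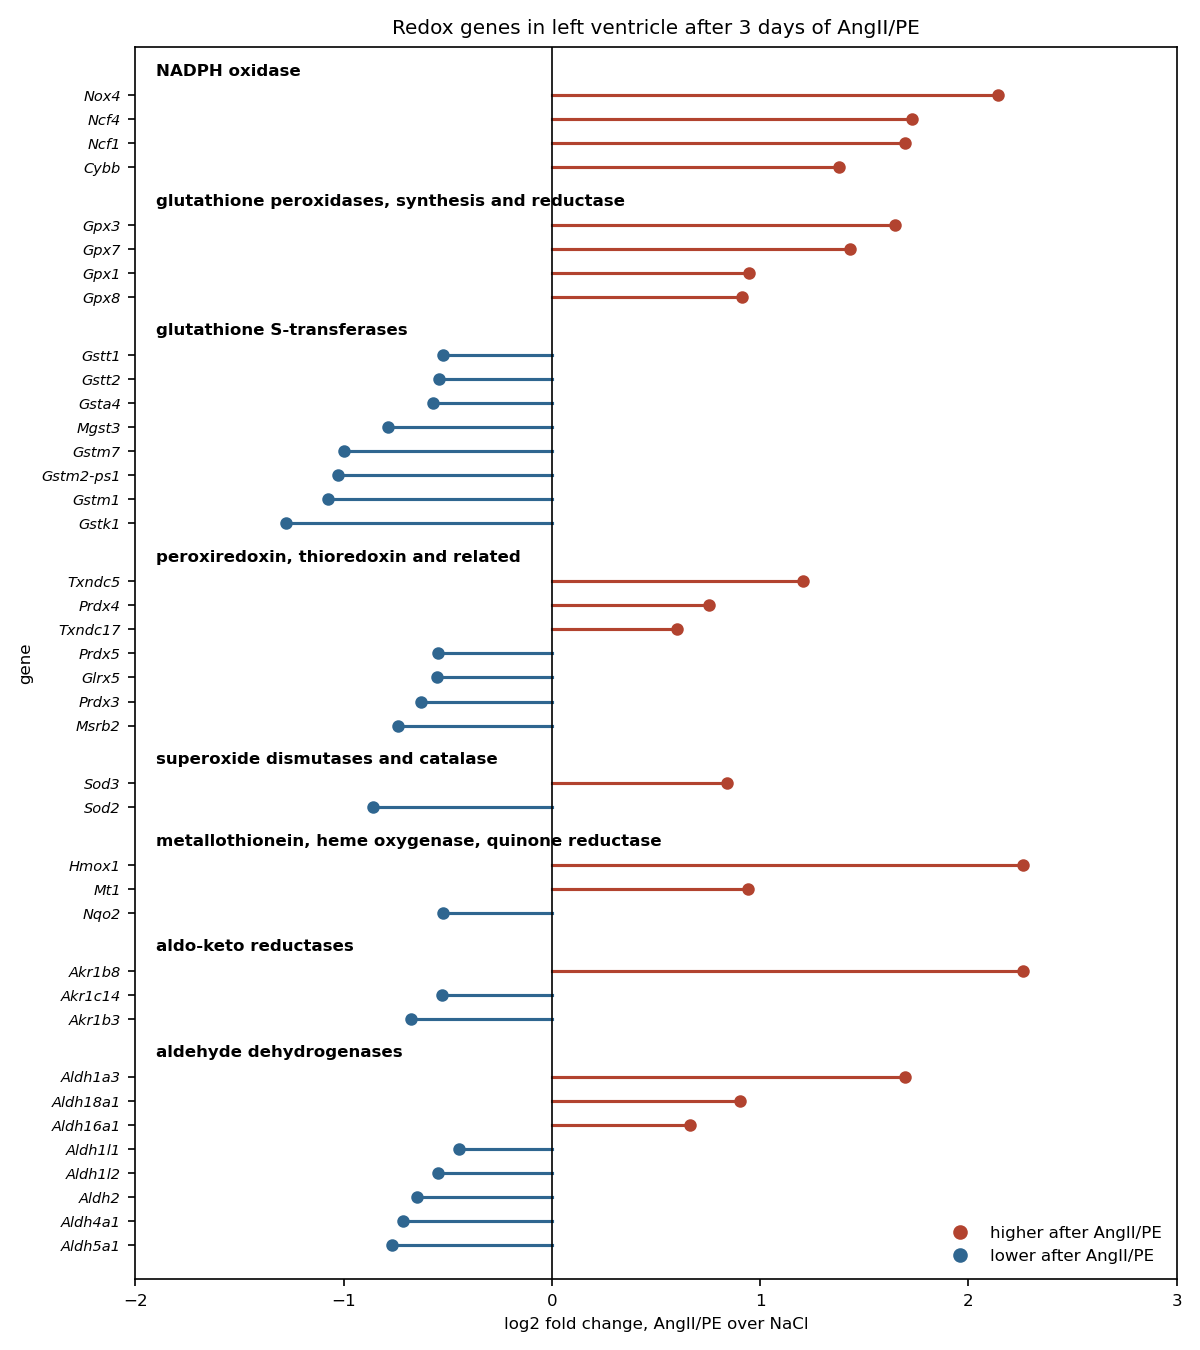
Log2 fold change of AngII/PE over NaCl (horizontal axis) of the 39 redox genes, grouped by role down the vertical axis, as the authors deposited it; each point is 1 gene, red if higher and blue if lower, with no error because the table gives none. NADPH oxidase and glutathione peroxidase genes lie right of 0, glutathione S-transferase genes left of it, and no redox gene lies between -0.45 and 0.60.

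Promoter windows from RefSeq on GRCm38.p6, running from 250 bases before to 50 after a gene's start, were at hand for 29 of the 39 redox genes. The 3 windows below are shown because each holds a short motif that is usually named in the regulation of such a gene: a phagocyte oxidase gene, a metallothionein gene and a glutathione S-transferase gene. Capitals mark the matches on either strand. For Cybb, on chromosome X, 9469275 to 9469574 on the minus strand, they mark the core GAGGAA (here on the opposite strand) of sites bound by PU.1, a transcription factor of myeloid cells. For Mt1, on chromosome 8, 94178839 to 94179138 on the plus strand, they mark the metal response element cores TGCACNC and TGCGCNC. For Gstm7, on chromosome 3, 107931565 to 107931864 on the minus strand, they mark the antioxidant response element core TGACNNNGC, bound by Nrf2. The RefSeq start used for Cybb lies 18.4 kb inside the gene body that GENCODE gives, which reaches farther upstream, so the window is not at the outermost annotated start. That of Gstm7 lies 203 bases inside its GENCODE gene body, so its match, at -129 from that start, lies inside the gene body too. Gstm7 had 2 windows, and the window with more matches, or the first by position if equal, is shown.
Cybb: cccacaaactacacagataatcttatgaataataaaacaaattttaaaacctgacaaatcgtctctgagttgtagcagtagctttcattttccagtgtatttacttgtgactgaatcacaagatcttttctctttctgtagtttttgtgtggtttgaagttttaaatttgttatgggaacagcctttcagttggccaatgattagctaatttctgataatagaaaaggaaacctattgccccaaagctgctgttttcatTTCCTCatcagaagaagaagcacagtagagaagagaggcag
Mt1: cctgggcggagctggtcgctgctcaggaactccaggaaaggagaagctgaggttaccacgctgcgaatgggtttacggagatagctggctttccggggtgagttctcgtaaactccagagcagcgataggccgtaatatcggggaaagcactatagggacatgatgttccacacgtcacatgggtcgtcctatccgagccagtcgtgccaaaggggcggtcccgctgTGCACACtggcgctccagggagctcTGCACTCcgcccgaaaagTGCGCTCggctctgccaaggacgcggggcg
Gstm7: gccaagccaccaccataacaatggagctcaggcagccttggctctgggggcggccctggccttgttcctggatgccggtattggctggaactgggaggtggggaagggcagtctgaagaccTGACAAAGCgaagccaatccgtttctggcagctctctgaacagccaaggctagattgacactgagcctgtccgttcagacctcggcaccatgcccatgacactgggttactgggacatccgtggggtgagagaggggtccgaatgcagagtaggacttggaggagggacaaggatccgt

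Among the redox genes, the shares with these motifs lay near those of all genes. The antioxidant response element core stood in the windows of 3 of 29 redox genes (10.3%; Gstm7, Msrb2 and Txndc5) and of 14.0% of all 27025 genes with a window. Either metal response element core stood in 9 of 29 (31.0%), against 28.2% of all genes, and the PU.1 core in 8 of 29 (27.6%), against 31.3%. Of the genes with the antioxidant core, Txndc5 was higher and Gstm7 and Msrb2 were lower. A match of so few letters is a description of the sequence, not of binding, and enhancers outside the windows were not searched.

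All 4 NADPH oxidase genes with a value rose. Nox4 encodes a catalytic subunit that releases mainly hydrogen peroxide and is known from cardiac muscle cells and fibroblasts. Its log2 fold change was 2.14 in the authors' deposited table (4.42-fold higher, adjusted p = 8.00e-19), rank 289 of 2213 listed rises by size. Cybb, the catalytic subunit of the phagocyte enzyme, stood in the authors' deposited table at 1.38 (adjusted p = 1.47e-33). Cytosolic partners were higher as well. Ncf4 was at 1.73 (adjusted p = 1.75e-15) and Ncf1, the organiser subunit, at 1.70 (adjusted p = 6.89e-41), as the authors' deposited table gives them. Cyba, the membrane partner shared by Cybb and Nox4, had no value analysed here, nor had Nox1 and Nox3. Nox4 lies at chromosome 7, 87246096 to 87398710, Ncf4 at chromosome 15, 78244801 to 78262580, Ncf1 at chromosome 5, 134220053 to 134229625 and Cybb at chromosome X, 9435252 to 9487771.

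Those genes that work with NADPH oxidase and had a value moved the same way. Of 17 partner genes, 7 had a value and all 7 were higher, beside 56.2% of all listed genes. The other 10 had no value. Sh3pxd2b, an adaptor for Nox enzymes, was at 2.01 and the exchange factor gene Vav1 at 1.77 in the authors' deposited table. Rac2, the small GTPase of the phagocyte oxidase in blood cells, was at 1.52 and P4hb, a protein disulfide isomerase known to associate with Nox enzymes, at 1.24 by the authors' deposited table. Cybc1, the chaperone needed for the phagocyte membrane subunits, was at 0.62 in the authors' deposited table. Macrophage and monocyte markers were higher beside them in 9 of 9 genes, against 56.2% of all listed genes. These markers ran from Csf1r at 0.79 to Ccr2 at 3.28 in the authors' deposited table. Neutrophil markers had 1 value of 7, that of Csf3r at 1.71 (the authors' deposited table), and S100a8, S100a9 and Mpo had none analysed here. Whole tissue gives the sum over its cells, so more or fewer cells of a type and more or less RNA per cell cannot be told apart. What the macrophage markers contribute to the oxidase genes was not tested.

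All 4 peroxidase genes of the glutathione group with a value rose. Gpx3, the secreted glutathione peroxidase of blood plasma, was at 1.65 (3.14-fold, adjusted p = 2.33e-78), and Gpx7, which sits in the endoplasmic reticulum, at 1.43 (adjusted p = 3.88e-28), both from the authors' deposited table. Gpx1, the widespread cytosolic and mitochondrial form, stood at 0.95 (adjusted p = 4.96e-45), and Gpx8, a membrane protein of the endoplasmic reticulum, at 0.92 (adjusted p = 2.55e-11) by the authors' deposited table. The other 7 coding genes of this group had no value analysed here, among them Gpx4, which protects membrane lipids, Gclc and Gclm, which make the glutathione precursor, and Gsr, which reduces oxidised glutathione. Gpx3 lies at chromosome 11, 54902453 to 54910377 and Gpx7 at chromosome 4, 108400390 to 108406961. Gpx8 lies inside the opposite-strand gene Cdc20b, with which it shares 3658 bases of gene body.

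Glutathione S-transferases attach glutathione to reactive compounds, and all 8 genes with a value, a pseudogene among them, fell. Gstk1, the kappa class enzyme of mitochondria and peroxisomes, had the largest fall of the redox genes at -1.28 (2.43-fold lower, adjusted p = 2.63e-77), as listed in the authors' deposited table. Gstm1 followed at -1.07 (2.11-fold lower, adjusted p = 2.46e-172), which is rank 12 by adjusted p among the 1726 listed falls in the authors' deposited table. Another mu class gene, Gstm7, was at -0.998 (adjusted p = 1.20e-38), and the microsomal Mgst3 at -0.79 (adjusted p = 1.04e-75) by the authors' deposited table. Smaller falls were those of Gsta4, which handles the lipid aldehyde hydroxynonenal, at -0.57, of Gstt2 at -0.54 and of Gstt1 at -0.52 in the authors' deposited table. Gstk1 lies at chromosome 6, 42245935 to 42250447 and Gstm1 at chromosome 3, 108012255 to 108017973.

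Genes of this family that had a value and lie near each other had like values, where all 8 with a value fell. Genes without a value that may lie between them were not considered. Gstm7 and Gstm1 lie 80.4 kb apart on chromosome 3, and Gstt1 and Gstt2 32.5 kb apart on chromosome 10. The pseudogene Gstm2-ps1 at chromosome 5, 116632908 to 116633564, was at -1.03 (adjusted p = 9.51e-05) in the authors' deposited table. Among its 50-base stretches, 46.9% also occur in transcripts of other genes, and 35.4% in those of Gstm1 alone, so its value is uncertain. For Gstm1 itself 18.9% of the stretches are shared, and for Gstm7 0.532%. No value was analysed here for 18 other coding genes of the family, including Gstp1 and Gstm2.

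Peroxiredoxins and thioredoxin-like genes were split, with 3 higher and 4 lower. Txndc5, a disulfide isomerase of the endoplasmic reticulum, had the largest change at 1.20 (2.30-fold higher) in the authors' deposited table, with an adjusted p of 6.52e-83. Prdx4, the peroxiredoxin of the endoplasmic reticulum, was at 0.75 (adjusted p = 4.03e-11), and the cytosolic thioredoxin-like Txndc17 at 0.60 (adjusted p = 8.21e-12) by the authors' deposited table. The 4 lower genes all encode mitochondrial proteins. Msrb2, which repairs oxidised methionine, was at -0.74 (adjusted p = 3.44e-27) and Prdx3, the peroxiredoxin of the mitochondrial matrix, at -0.63 (adjusted p = 1.04e-61) in the authors' deposited table. Glrx5, which serves in iron-sulfur cluster assembly, was at -0.55 (adjusted p = 2.29e-24) and Prdx5 at -0.54 (adjusted p = 2.15e-66) by the authors' deposited table. The thioredoxins Txn1 and Txn2, their reductases and the inhibitor Txnip had no value analysed here. Txndc5 lies at chromosome 13, 38500079 to 38528824, Prdx4 at chromosome X, 155323918 to 155340754 and Txndc17 at chromosome 11, 72207547 to 72210015.

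Superoxide dismutases went opposite ways. Sod3, the extracellular enzyme, was at 0.84 (1.79-fold, adjusted p = 2.96e-15), and Sod2, the manganese enzyme of the mitochondrial matrix, at -0.86 (1.81-fold lower, adjusted p = 1.28e-164), both from the authors' deposited table. By adjusted p, Sod2 was rank 15 of the 1726 listed falls and Sod3 rank 1039 of the 2213 listed rises in the authors' deposited table. Of the 50-base stretches of Sod2, 21.04% are shared with other annotated transcripts, most of them (17.6% of all) with AC166110.4. Cytosolic Sod1 and catalase had no value analysed here. Sod3 lies at chromosome 5, 52363791 to 52371418 and Sod2 at chromosome 17, 13006846 to 13040063.

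Hmox1, the inducible enzyme that breaks down heme, had the largest rise of the redox genes. Its value in the authors' deposited table was 2.26 (4.80-fold, adjusted p = 4.21e-77), rank 262 of 2213 listed rises by size. Mt1, a metal-binding protein that also scavenges radicals, was at 0.94 (1.92-fold, adjusted p = 3.67e-05) by the authors' deposited table. Gpx1 had nearly the same size of rise at a far smaller adjusted p (0.95, 4.96e-45, both from the authors' deposited table). No error is given beside either. Nqo2, a quinone reductase, was lower at -0.53 (adjusted p = 2.37e-12) in the authors' deposited table. Its gene body shares 23757 bases with the opposite-strand Serpinb6a, which stood at 0.97 in the authors' deposited table. Hmox1 lies at chromosome 8, 75093621 to 75100589, Mt1 at chromosome 8, 94179082 to 94180327 and Nqo2 at chromosome 13, 33964687 to 33988443. Mt2, Nqo1 and Hmox2 had no value analysed here.

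**Figure D2:**
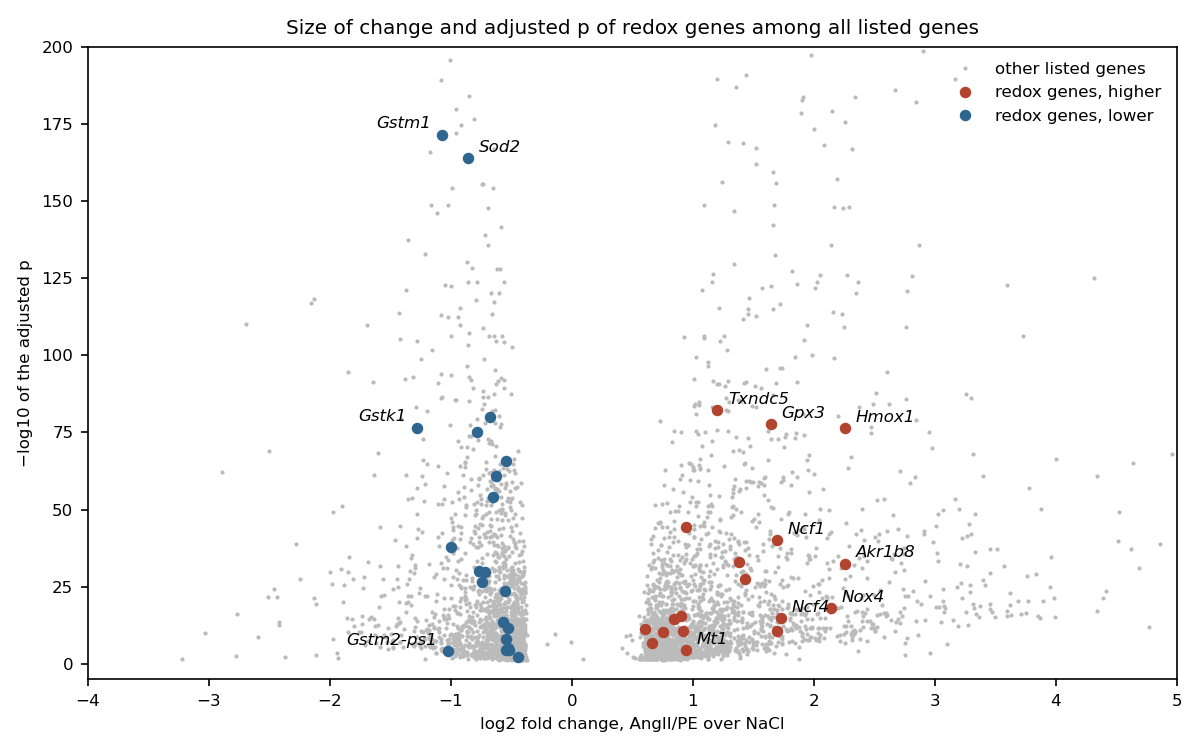
Log2 fold change of AngII/PE over NaCl (horizontal axis) against −log10 of the authors' adjusted p (vertical axis) for the listed genes, with redox genes in red (higher) or blue (lower) and the others in grey; 50 genes outside the axes or at an adjusted p of 0 are not drawn, none of them a redox gene. Gstm1 and Sod2 lie highest of the redox genes at -1.07 and -0.86, while Hmox1, Akr1b8 and Nox4 lie farthest right.

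Among redox genes with a value that lie near each other, a pair of aldo-keto reductases held the widest contrast. Akr1b8 was at 2.26 (4.79-fold, adjusted p = 3.63e-33) and Akr1b3, the aldose reductase of mice, at -0.68 (1.60-fold lower, adjusted p = 7.21e-81), as the authors' deposited table gives them. They lie 36.6 kb apart on chromosome 6, Akr1b3 at 34302434 to 34317478 and Akr1b8 at 34354119 to 34368463. Shared 50-base stretches made up 2.90% of those of Akr1b8 and 9.48% of those of Akr1b3. An antisense gene, Gm14546, covers all 15045 bases of Akr1b3. The steroid-reducing Akr1c14 was at -0.53 (adjusted p = 6.23e-06) in the authors' deposited table, and 13 other coding genes of the family had no value analysed here.

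Aldehyde dehydrogenases were 3 higher and 5 lower. Aldh1a3, which makes retinoic acid, was at 1.69 in the authors' deposited table (3.23-fold higher, adjusted p = 2.33e-11). Aldh18a1, which starts proline synthesis from glutamate, stood at 0.90 (adjusted p = 3.89e-16), and Aldh4a1, which completes proline breakdown to glutamate, at -0.71 (adjusted p = 1.65e-30) by the authors' deposited table. For Aldh4a1, 30.0% of the 50-base stretches also belong to the overlapping gene Gm21969. Aldh16a1, an atypical family member, was at 0.66 (adjusted p = 1.81e-07) in the authors' deposited table.

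The other 4 aldehyde dehydrogenase genes with a value were lower too. Aldh5a1, of the breakdown of the transmitter GABA, was at -0.77 (adjusted p = 8.19e-31), and Aldh2, which clears acetaldehyde and lipid aldehydes, at -0.65 (adjusted p = 1.03e-54) in the authors' deposited table. The folate enzymes Aldh1l2, in mitochondria, and Aldh1l1, in the cytosol, were at -0.54 (adjusted p = 1.42e-08) and -0.45 (adjusted p = 0.00848) by the authors' deposited table. Aldh1l1 is the redox gene with the adjusted p nearest to 0.05, a value that every listed adjusted p lies below. Aldh1a3 lies at chromosome 7, 66390890 to 66427517, Aldh18a1 at chromosome 19, 40550257 to 40588463, Aldh16a1 at chromosome 7, 45140684 to 45154584 and Aldh1l1 at chromosome 6, 90486427 to 90600203.

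The genes were also sorted by where their proteins work. Of 11 genes of mitochondrial proteins, 10 were lower (median of the 11, -0.65), from Gstk1 at -1.28 to Aldh1l2 at -0.54 in the authors' deposited table. Aldh18a1 was the exception. Of 8 genes of proteins that are secreted or sit in the endoplasmic reticulum, 7 were higher (median of the 8, 1.06), from Prdx4 at 0.75 to Hmox1 at 2.26 in the authors' deposited table. Mgst3 was the exception. The other 20 genes were 10 higher and 10 lower, beside 56.2% higher over all listed genes. The sorting comes from textbook knowledge and was made after the values were seen, so no test was run on it; Gstk1 and Prdx5 are counted as mitochondrial although they are known from peroxisomes too, Mgst3 is known from mitochondria as well, and Gpx1 and Nox4, each known from several places, were not assigned. Cardiac muscle is rich in mitochondria, and its markers moved with these genes: Myh6 was at -0.65, Pln at -0.91, Tnni3 at -1.07 and Myl2 at -1.17 in the authors' deposited table, while the other 3 of 7 markers had no value analysed here. Fibroblasts secrete much protein, and of their 5 markers Col1a1 was at 3.81 and Postn at 5.68 in the authors' deposited table, the rest without a value. The part of either cell type in the redox genes was not tested.

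**Figure D3:**
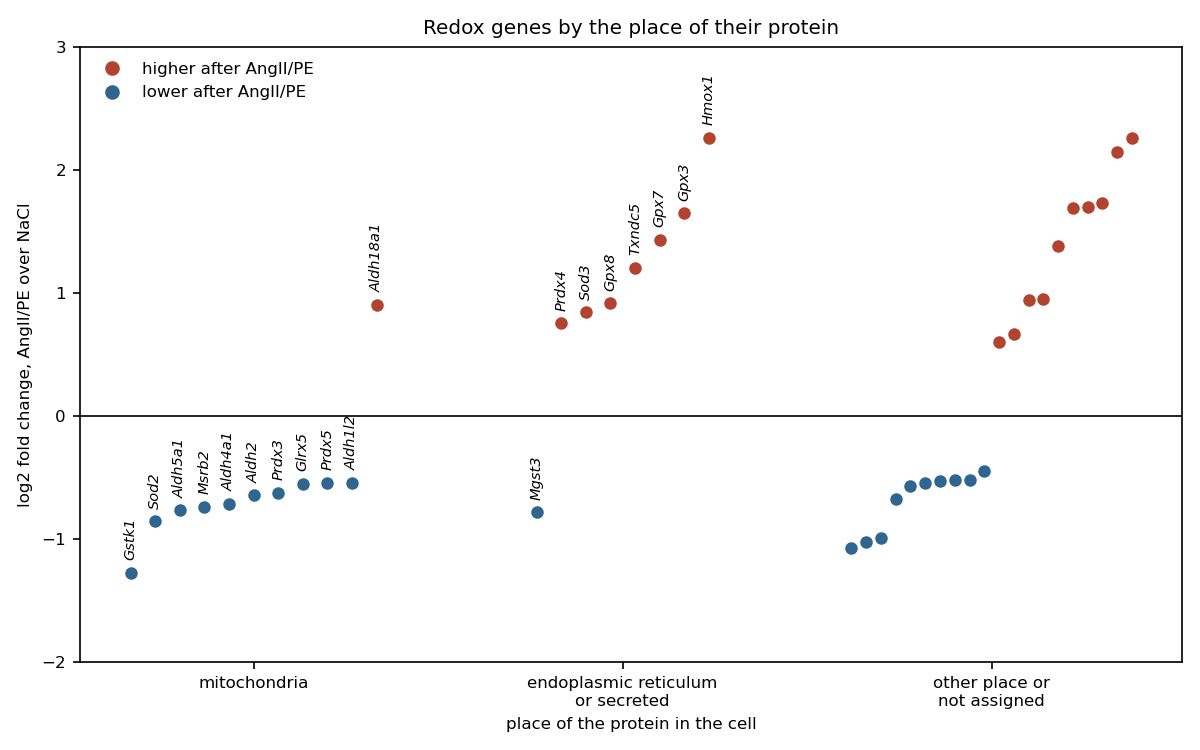
Log2 fold change of AngII/PE over NaCl (vertical axis) of the redox genes by the place of their protein (horizontal axis: mitochondria, endoplasmic reticulum or secreted, other place or not assigned); each point is 1 gene, ordered by value within its place, red if higher and blue if lower. In the mitochondrial set 10 of 11 points lie below 0, and in the endoplasmic reticulum or secreted set 7 of 8 lie above it. Over all listed genes, 56.2% were higher and 43.8% lower. Places were assigned after the values were seen, and Gpx1 and Nox4, both higher and each known from several places, were not assigned.

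Genes in and around the supply of NADPH, the reductant of these systems, were divided: 4 were higher, 4 lower and 9 of 17 without a value. Not all of them make NADPH themselves, so the count does not describe NADPH production. Pgd and G6pdx, the NADPH-making enzymes of the pentose phosphate pathway in the cytosol, were at 0.82 and 0.70 in the authors' deposited table. Mthfd1l and Mthfd2, mitochondrial folate enzymes, had the largest rises of the list at 2.30 and 1.87 by the authors' deposited table. Lower were Nnt, the transhydrogenase of the inner mitochondrial membrane, at -0.93, Idh2 at -0.92, the mitochondrial NAD kinase gene Nadk2 at -0.92 and Me3 at -0.58 in the authors' deposited table.

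Regulators of the antioxidant response mostly had no value. Of 10 genes around the transcription factor Nrf2, Maff alone had one, 0.85 in the authors' deposited table, and Nfe2l2, which encodes Nrf2, and its inhibitor Keap1 had none analysed here. Among well-known Nrf2 targets Nqo1, Gclc, Gclm, Txnrd1, Srxn1 and Slc7a11 also lacked a value, while Hmox1 had the rise given above. These are examples and no full list of Nrf2 targets. Other targets, which may be among the genes with a value, were not counted. Glutathione supply and breakdown had 4 values of 16, Ggt7 at 0.80, the glutathione-degrading Chac1 at 0.72, the exporter gene Abcc1 at 0.68 and Ggct at -0.60 in the authors' deposited table. A gene without a value is not shown to be unchanged.

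Around Hmox1, 5 of the 6 genes of iron and heme with a value were lower, beside 43.8% of all listed genes. The other 10 of 16 had no value. Alas2 and Alas1, which start heme synthesis, were at -1.25 and -0.50 and Fech, which completes it, at -0.41 in the authors' deposited table. Tfrc, the transferrin receptor gene, was at -0.68, Steap4 at -0.76, and Ftl1, the ferritin light chain gene, was the exception at 1.12 by the authors' deposited table. Alas2 is known from red cell precursors.

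Of 20 other enzymes that make oxidants, 7 had a value and 6 of these were higher, beside 56.2% of all listed genes. They were led by the lysyl oxidases of matrix cross-linking, Lox at 5.36, Loxl3 at 3.11, Loxl2 at 2.24 and Loxl1 at 1.83 in the authors' deposited table. Maob, the monoamine oxidase of the outer mitochondrial membrane, was at -0.88 by the authors' deposited table. Selenoproteins outside the peroxidases had 3 values of 18, all higher: Dio2, which activates thyroid hormone, at 1.98, Selenom at 0.76 and Selenof at 0.67 in the authors' deposited table. Of 21 sensors and other antioxidant genes, 5 had a value, 3 of them higher and 2 lower, and the other 16 had no value. Sesn2 was at 0.76, Pon2 at 0.67 and the uncoupling protein gene Ucp2 at 0.63, while its muscle relative Ucp3 was at -1.08 and Ppargc1a, a regulator of mitochondrial genes, at -0.40 in the authors' deposited table.

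**Figure D4:**
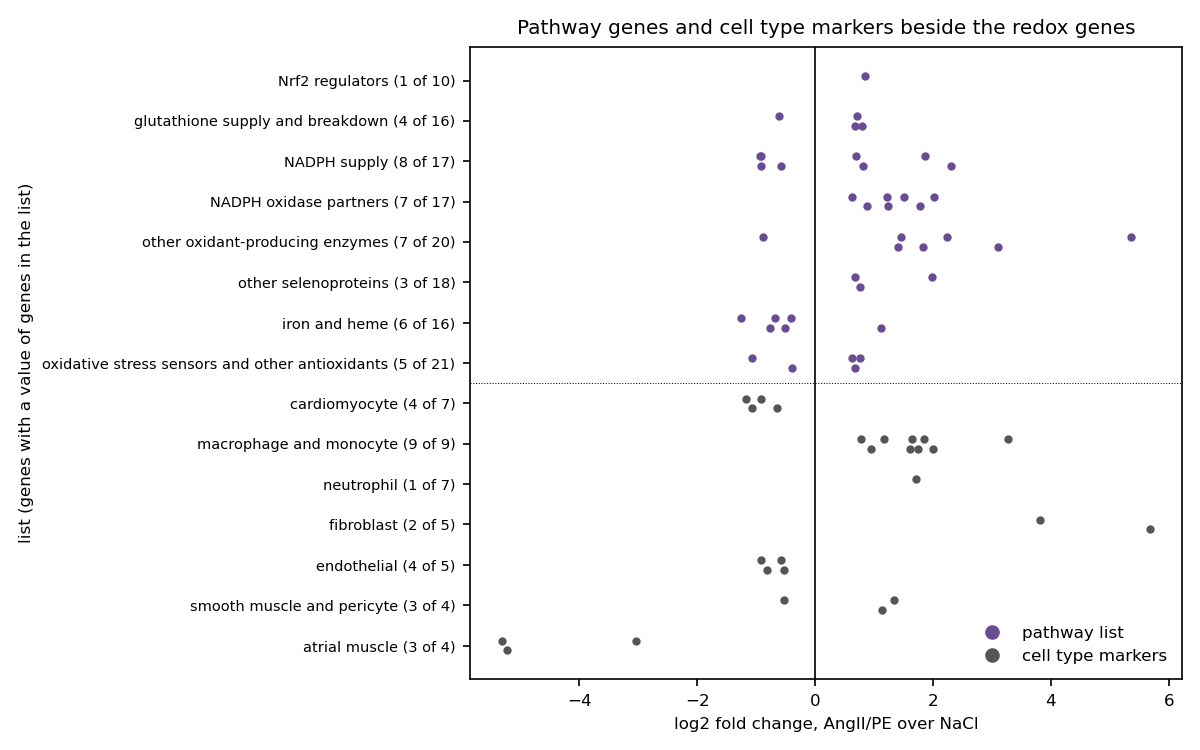
Log2 fold change of AngII/PE over NaCl (horizontal axis) of genes in 8 pathway lists (purple, above the dotted line) and of cell type markers (grey), 1 row a list down the vertical axis with the number of its genes that have a value; each point is 1 gene, moved slightly up or down for legibility. NADPH oxidase partners (7 of 17) and macrophage markers (9 of 9) lie right of 0, and cardiomyocyte (4 of 7), endothelial (4 of 5) and atrial muscle markers (3 of 4) left of it. Over all listed genes, 56.2% were higher and 43.8% lower.

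Markers of other cells also differed between the treatments. Endothelial markers were lower in 4 of 4 genes with a value, beside 43.8% of all listed genes. These markers ran from Cdh5 at -0.53 to Cldn5 at -0.92 in the authors' deposited table. Smooth muscle and pericyte markers were split, with Cspg4 at 1.33, Acta2 at 1.14 and Rgs5 at -0.52 by the authors' deposited table. The atrial muscle genes Sln, Myl7 and Mybphl stood at -5.30, -5.23 and -3.03 in the authors' deposited table. Levels were not analysed here, so the labelled tissue could be checked only through these fold changes, and the share of atrial muscle in each library is unknown.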

How the data were processed

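RNA from 12 libraries of whole left ventricle, 3 for each treatment and sex, was measured by RNA sequencing. The submitters' processing notes name mouse build mm10, DESeq2, featureCounts, Subread, cutadapt and STAR 2.4.2a, without roles or settings. Per the file headers, the authors deposited log2 fold changes, called averages, and p-values that they adjusted for the false discovery rate; both were used as they stand (columns of values per library used: 0). The model, what was averaged and how genes came to be listed were not given in the sources used here. Neither errors nor depth come with these values.

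Redox genes were taken by symbol (a member of the group is not reported here and enters no count of redox genes), and the split by direction, the medians and the ranks were computed with pandas 2.3.3. The table's descriptions were not used, since those of Mt1, Prdx5 and Gstm7 name other genes. Genes named with an adjusted p and position were to be the 2 largest changes of each of 8 role groups, those against their group's majority and those nearest the threshold; adjusted p-values are given for the other redox genes too. Genes of the 8 pathway lists were to be named by size, up to 4 a list, and the rest were chosen after their values were seen. The redox genes, their groups and all 15 lists were chosen with earlier results of these data known, the PU.1 motif and the places in the cell after the values were seen. No statistical test was run beyond the authors' own. Positions, overlapping genes and the share of 50-base stretches found in transcripts of other genes come from GENCODE M21. The use of strand in counting was not given in the sources used here. On the opposite strand, 11 redox genes overlap another gene, and reads of such pairs may not be told apart.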

Additional observations from a re-analysis of the deposited data

How the results depend on the processing

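The share of redox genes that were higher (46.2%) stayed between 40.0% and 58.1% under stricter adjusted p thresholds, removal of pseudogenes and removal of each role group in turn. It moved to 76.9% (10 of 13) among changes of 1 or more on the log2 scale in either direction, where that of all listed genes moved to 81.5%. Leaving out predicted models, RIKEN clones and pseudogenes moved the share of all listed genes to 59.7%. The median over all 39 redox genes (-0.52) lies near the empty stretch between -0.45 and 0.60, and its sign turned under 3 alternatives: it was 1.65 over the 13 genes past the size threshold, 0.0408 over the 28 left without the Akr1 and Aldh genes, and 0.0778 without the 3 genes that share over 20% of their 50-base stretches (an alternative chosen after seeing the data). Subtracting the midpoint of the table's edges, 0.114, turned the direction of none of the 39 and left their share at 46.2%. It could not have done otherwise, since subtraction only deepens falls, and the smallest rise, Txndc17 at 0.60, exceeds the midpoint. At an adjusted p below 0.001 all but Aldh1l1 stayed, as did 3467 of all 3939 listed genes. No paired analysis was possible because the table holds no values per library, and leaving out libraries or fitting sex could not be run for the same reason. Depth is unknown, so what it limits cannot be said.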
